A study of Rattus norvegicus with 6 samples.

Results

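Endothelial and lymphatic vessel marker genes were followed in the right ventricle (RV) of rats with pulmonary hypertension caused by Sugen and hypoxia (SuHx). The set holds 49 genes, chosen by name as markers of vessel cells and of their ligands, out of 12958 named genes in the count matrix. Of these, 42 had a row and 7 (Pecam1, Calcrl, Cav1, Ptprb, Lmo2, Mmrn2 and Vcam1) are not analysed here. All 42 genes reached the minimum mean of 10 normalised counts over the 6 libraries that was set for testing. The lowest means were 10.97 for Bmx and 12.9 for Selp, and no member with a row fell below the limit. The genes were split into 15 pan-endothelial, 7 capillary, 6 arterial, 4 venous, 5 activated or sprouting and 4 lymphatic markers and 1 perivascular ligand.

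RNA of the RV was sequenced in 3 libraries of SuHx rats at 8 weeks, labelled as decompensated, and in 3 libraries of healthy control rats at day 0. All animals were Sprague-Dawley rats, and the labels give no age. SuHx rats received SU5416, an inhibitor of the receptors for vascular endothelial growth factor, and were kept in hypoxia before a return to normoxia, so endothelial cells are themselves a target of the model. Day 0 was set against 8 weeks, so time and growth cannot be told apart from the SuHx treatment. Letters A, B and C stand for the SuHx libraries, as the labels give 1 column name to all of them. No label ties a library to its own rat, so the spread behind each p-value is that of libraries and may be technical only.

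Endothelial cells line all vessels and hold neighbouring cells together with VE-cadherin, the product of Cdh5. In the heart, capillary endothelium takes up fatty acids for the muscle and carries Fabp4, Gpihbp1 and Car4, while arterial endothelium depends on Notch signals and venous endothelium on the factor encoded by Nr2f2. Angiopoietin 1 (Angpt1), made by cells around the vessel, acts on the receptor encoded by Tek on endothelial cells, and angiopoietin 2 (Angpt2), made by endothelial cells, can oppose it. Apelin (Apln) is made by sprouting endothelium and acts on the receptor encoded by Aplnr. E-selectin (Sele), P-selectin (Selp) and Icam1 are put on the surface of activated endothelium, where leukocytes bind to them. Lymphatic endothelium is set up by the transcription factor Prox1 and carries Lyve1 and Pdpn.

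Many endothelial genes carry binding sites of ETS factors. Of such sites, 1 form was searched in the 250 bases before each annotated start. It was AGGAAG or its reverse complement CTTCCT, which do not overlap each other. Other forms were not searched, so 0 matches does not show that a promoter lacks a site. Promoters of 28 of the 49 genes were found by symbol in the RefSeq table of the rat assembly GRCr8, and 14 of them (50%) held at least 1 match, against 29.37% of all 27457 promoters. A match is a description of the letters and not a bound site, and this share was not tested. The windows of the 3 capillary markers that lie wholly outside annotated genes are given 5′ to 3′ on the strand of the gene with matches in capitals, since this class held the largest median shift of control 3 among the vessel classes. Aqp1 lies on the plus strand at chr4:85812534-85812783 and has 2 matches, Rgcc on the minus strand at chr15:61084409-61084658 has 0, and Plvap on the minus strand at chr16:18231280-18231529 has 2.
Aqp1: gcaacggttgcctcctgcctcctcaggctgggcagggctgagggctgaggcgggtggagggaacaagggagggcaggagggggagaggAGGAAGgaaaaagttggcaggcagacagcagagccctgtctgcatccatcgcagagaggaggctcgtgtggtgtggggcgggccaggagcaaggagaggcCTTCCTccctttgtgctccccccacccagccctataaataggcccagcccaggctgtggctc
Rgcc: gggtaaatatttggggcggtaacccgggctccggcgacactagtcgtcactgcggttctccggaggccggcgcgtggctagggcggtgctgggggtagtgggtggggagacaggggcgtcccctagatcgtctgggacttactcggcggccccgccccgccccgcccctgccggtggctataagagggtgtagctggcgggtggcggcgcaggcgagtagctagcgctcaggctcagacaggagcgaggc
Plvap: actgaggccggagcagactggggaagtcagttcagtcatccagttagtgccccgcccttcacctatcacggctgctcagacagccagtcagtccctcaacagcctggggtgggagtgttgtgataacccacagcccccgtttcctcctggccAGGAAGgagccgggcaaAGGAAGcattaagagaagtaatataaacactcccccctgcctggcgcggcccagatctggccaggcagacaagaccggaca

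Libraries differed in ways that touch these genes. Control 3 stood apart, with all 10 tested immediate early genes, which are transcribed within minutes of a stimulus, at over 2-fold the mean of controls 1 and 2. Their summed normalised counts were 3875, 2365 and 4149 in SuHx libraries A, B and C, against 5137, 3397 and 26022 in controls 1, 2 and 3. The atrial transcript Bmp10 was listed at 0 in all SuHx libraries and in controls 2 and 3, and at 2363 normalised counts in control 1. The atrial markers Myl7, Myl4 and Sln had 1353, 9629 and 560 in control 1, against 58.1 or fewer in every other library. Nppa and Pam, on the same list, were also high in SuHx, at 15462 to 17508 and 24071 to 32247. The part of atrial tissue in control 1 was not tested. Cardiomyocyte markers were present in every library, with sums of 563285 to 629472 in SuHx and 729074 to 858440 in control. Myh6, 1 of these markers, had 131261 to 173603 normalised counts in SuHx and 320910 to 386592 in control. The median log2 fold change of the 9 tested cardiomyocyte markers was 0.030, with 6 positive and 3 negative. The lower sums in SuHx thus did not extend to most of these markers. The level of long transcripts minus that of ribosomal protein genes was 0.064 (A), 0.19 (B) and 0.44 (C) log2 units in SuHx. It was -0.25, -0.078 and -0.18 in controls 1, 2 and 3. This difference can fall when RNA is degraded, but it also follows any change in either list. In control 3 both lists lay above the mean of the 6 libraries, by medians of 0.22 for long transcripts and 0.40 for ribosomal protein genes. RNA quality itself was not tested.

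With all 6 libraries, 1 of the 42 vessel markers fell in SuHx RV and 0 rose (limma on log2 of the normalised count + 1, Benjamini-Hochberg adjusted p under 0.05). Of all 10725 genes tested, 0.671% were lower and 1.55% higher by the same rule. At an unadjusted p under 0.05, 3 members were lower (Apln, Angpt1 and Gpihbp1) and 2 higher (Sele and Eng), against 7.59% and 9.61% of all genes. All 3 SuHx libraries lay below all 3 controls in 5 members (Apln, Gpihbp1, Car4, Emcn and Angpt2) and above them in 2 (Sele and Eng), where 11.6% and 12.9% of all genes did so. The median log2 fold change of the members was -0.078, beside 0.0095 over all genes tested. The fall rests on a single gene, and by the unadjusted p and by overlap the members' shares were close to the background for lower values and under it for higher values. In bulk tissue, fewer cells of a type and less RNA per cell cannot be told apart.

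**Figure D1:**
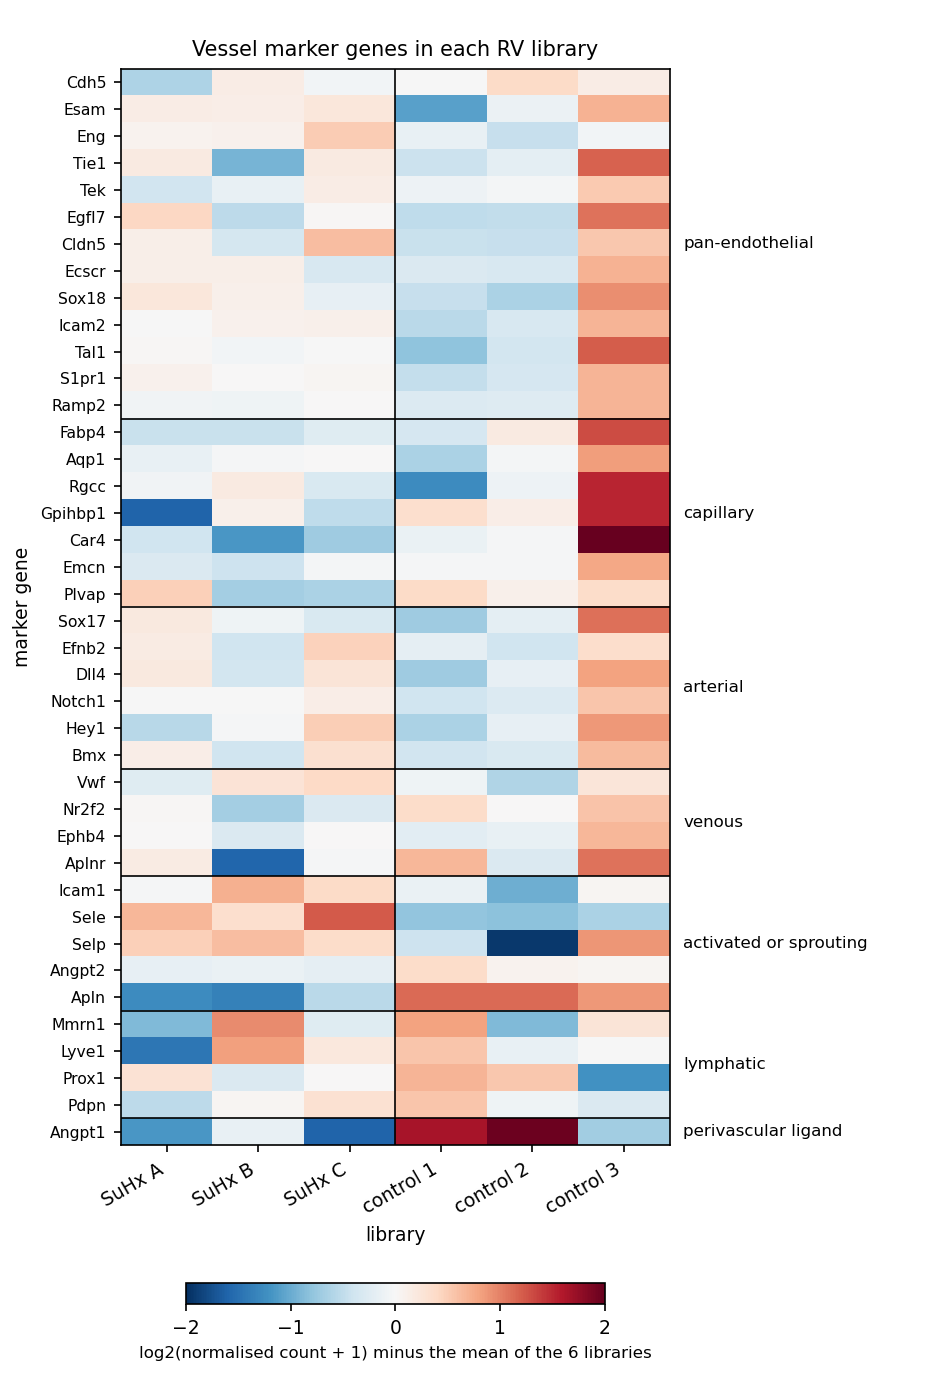
Heat map of 40 vessel marker genes (rows, by class) in 3 SuHx and 3 control RV libraries (columns). Colour gives log2(normalised count + 1) minus the gene's mean over the 6 libraries, with the scale limited to -2 and 2. Control 3 is the highest library for 25 of the genes. Erg and Robo4, listed at 0 in 5 libraries each, are left out.

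Apln was the member that fell, and the cells behind its counts in bulk RV were not tested. Its normalised counts were 39.4, 37.0 and 65.8 in SuHx libraries A, B and C, against 212, 213 and 177 in controls 1, 2 and 3. Every SuHx library lay far below every control, and control 3 was close to the other controls for this gene. SuHx averaged 47.4 ± 15.99 and control 200.5 ± 20.6 normalised counts (SD over 3 libraries), which gave a log2 fold change of -2.10 (SE 0.25, limma adjusted p = 0.0125). An exact permutation test of these 3 against 3 libraries gave p = 0.1 (two-sided), the smallest possible. Without control 3 the log2 fold change was -2.19 (limma adjusted p = 0.0143). Without SuHx A it was -1.99 and the adjusted p rose to 0.062, and without controls 1 and 3 together it was -2.19 with an adjusted p of 0.077.

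The apelin receptor gene Aplnr, named after its values were seen, had 346, 102 and 303 normalised counts in SuHx libraries A, B and C, against 490, 253 and 661 in controls 1, 2 and 3. The groups overlapped, with SuHx A and C above control 2. Its log2 fold change was -0.97 (95% interval -2.19 to 0.25), which did not pass the test (limma adjusted p = 0.39).

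Angpt1 showed a difference that turned on control 3. It had 47.2, 96.4 and 34.3 normalised counts in SuHx libraries A, B and C, against 335, 416 and 65.7 in controls 1, 2 and 3. Controls 1 and 2 were far above all SuHx libraries, while control 3 lay among them. The log2 fold change was -1.94 (SE 0.71) with all libraries and did not pass (limma adjusted p = 0.23), and without control 3 it was -2.77 (SE 0.41) and passed (adjusted p = 0.022). Mural cell markers, of cells that make angiopoietin 1, summed to 6420, 8594 and 8279 in the SuHx libraries and to 7320, 7379 and 5067 in controls 1, 2 and 3. Abcc9 alone gave the largest part of each sum, with 3557, 4721 and 4816 in SuHx libraries A, B and C. In controls 1, 2 and 3 Abcc9 had 4224, 4080 and 2745, so the sums mainly follow 1 gene. Pdgfrb, a pericyte marker in the same sums, was listed at 0 in control 3, which can be a failed estimate. It had 652 and 1132 normalised counts in controls 1 and 2. The part of mural cells in the Angpt1 values was not tested.

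Angpt2, named after its values were seen, had 96.7, 98.1 and 95.4 normalised counts in SuHx libraries A, B and C, against 139, 114 and 110 in controls 1, 2 and 3. The SuHx libraries were tightly grouped just under the lowest control. The log2 fold change of -0.31 (SE 0.17) did not pass (limma adjusted p = 0.39). The receptor gene Tek had between 608 and 875 normalised counts in SuHx and between 739 and 1138 in control.

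Among markers of activated endothelium, Sele had 60.3, 47.8 and 89.8 normalised counts in SuHx libraries A, B and C, against 21.5, 21.0 and 24.1 in controls 1, 2 and 3. All SuHx libraries lay above all controls, which hardly differed from each other. SuHx averaged 66.0 ± 21.6 and control 22.2 ± 1.61 normalised counts (SD over 3 libraries), which gave a log2 fold change of 1.48 (SE 0.29). This did not pass the threshold (limma adjusted p = 0.053). The adjusted p lay between 0.056 and 0.21 when each library was left out in turn, lowest without control 3 and highest without SuHx C, and was 0.15 after rescaling to equal totals. Sele passed only where each library was weighted by its spread (adjusted p = 0.030), out of 17 alternatives that gave a value for it.

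Icam1, the adhesion molecule for leukocyte integrins, had 81.9, 138 and 109 normalised counts in SuHx libraries A, B and C, against 76.3, 41.7 and 85.4 in controls 1, 2 and 3. SuHx A lay below control 3, so the groups overlapped, and the log2 fold change of 0.72 (SE 0.32) did not pass (limma adjusted p = 0.31). Selp was counted at 15.5, 17.1 and 14.3 in SuHx libraries A, B and C, against 7.87, 2.09 and 20.8 in controls 1, 2 and 3. Its log2 fold change was 0.98 (SE 0.75, limma adjusted p = 0.55), with control 3 above every SuHx library, and 1.66 without control 3 (adjusted p = 0.24). Icam1 and Selp were named after their values were seen. Leukocyte markers summed to 612 (A), 1404 (B) and 1472 (C) in SuHx and to 919, 634 and 647 in controls 1, 2 and 3, and their part in the values of the adhesion molecules was not tested.

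**Figure D2:**
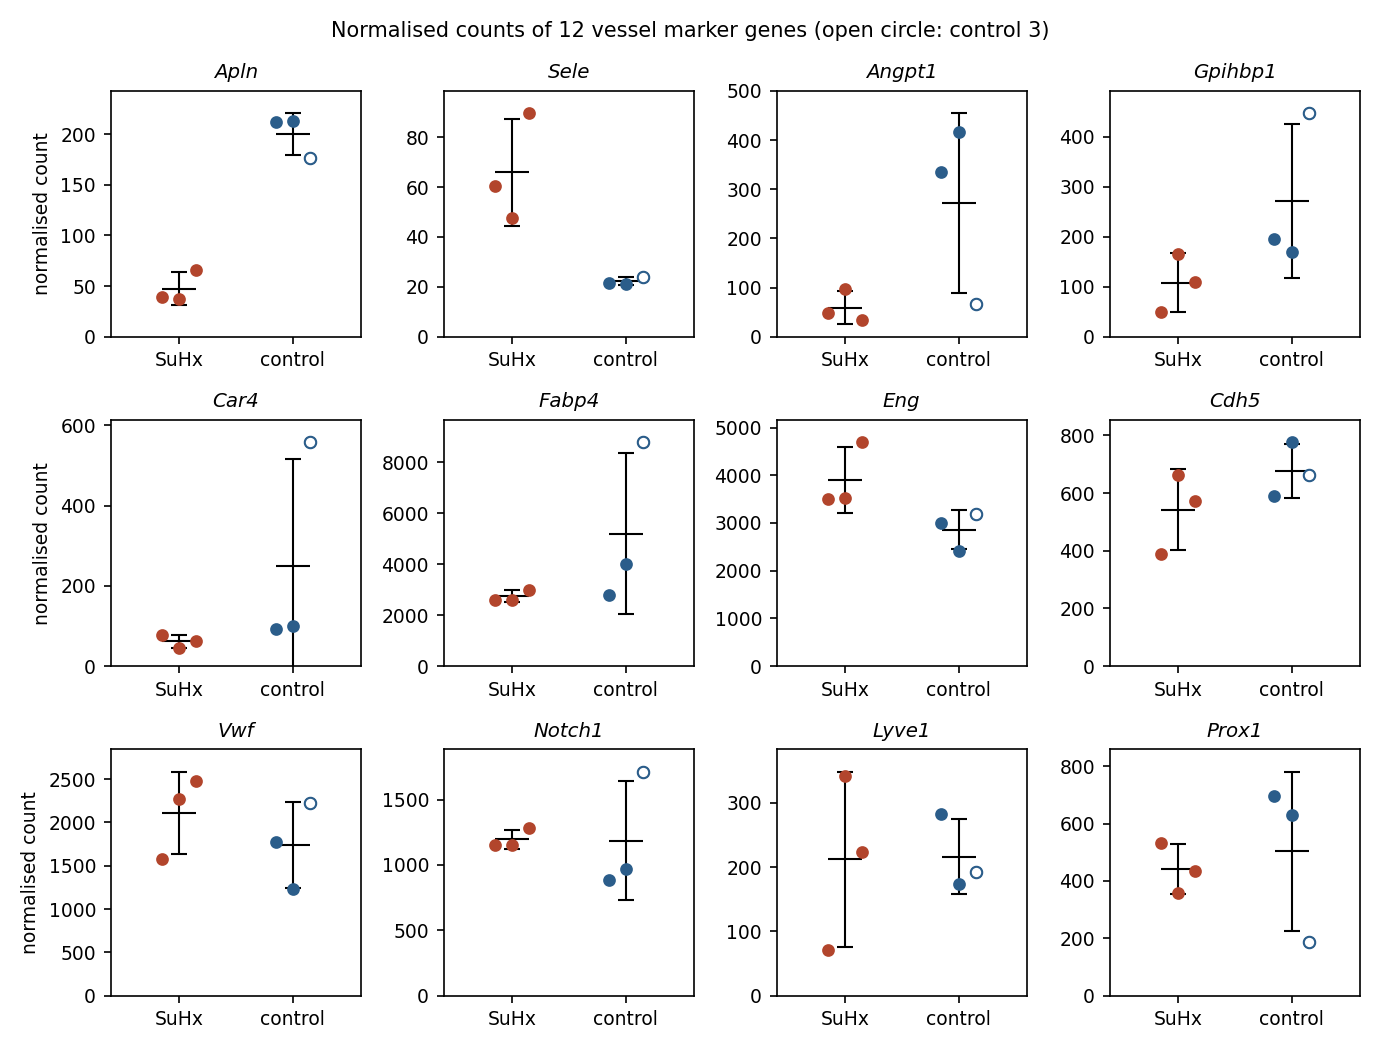
Normalised counts (y axis, from 0) of 12 vessel marker genes in SuHx (left) and control (right) RV. Each point is a library, the open circle is control 3, the bar is the mean and the whiskers are ± SD over 3 libraries. Apln (37.0 to 65.8 in SuHx, 177 to 213 in control) and Sele (47.8 to 89.8 in SuHx, 21.0 to 24.1 in control) do not overlap, nor do Car4, Gpihbp1 and Eng. For Fabp4 and Car4 control 3 lies far above the other controls. The lower whisker of Car4 in control ends below the axis.

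The capillary class had negative log2 fold changes in 7 of 7 genes, with a median of -0.56, and 0 of the 7 passed the test. Without control 3 the median was -0.30 and 5 of 7 genes were negative. Over all genes tested, 50.9% had positive values with all libraries and 49.9% without control 3. Gpihbp1, which holds lipoprotein lipase on the capillary wall, had 49.998, 166 and 109 normalised counts in SuHx libraries A, B and C, against 194, 170 and 448 in controls 1, 2 and 3. SuHx B came close to control 2, and control 3 stood far above the rest. SuHx over control came to a log2 fold change of -1.33 (SE 0.51, limma adjusted p = 0.25), and -0.90 without control 3 (adjusted p = 0.34).

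Car4, a carbonic anhydrase on the capillary surface, had 77.6, 44.9 and 62.0 normalised counts in SuHx libraries A, B and C, against 92.8, 101 and 558 in controls 1, 2 and 3. The value of control 3 was 5.75 times the mean of controls 1 and 2, the highest such ratio of any member. SuHx over control gave a log2 fold change of -1.52 (SE 0.66, limma adjusted p = 0.30), and -0.68 without control 3 (adjusted p = 0.22), with all SuHx libraries below all controls in both cases.

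Fabp4, a fatty acid carrier, had 2602, 2614 and 3007 normalised counts in SuHx libraries A, B and C, against 2807, 4017 and 8785 in controls 1, 2 and 3. SuHx C lay above control 1, so the groups overlapped. Its log2 fold change of -0.76 (SE 0.38, limma adjusted p = 0.36) was -0.30 without control 3. Fabp4 is also made by adipocytes, and Adipoq, which defines them, was listed at 1.55 normalised counts or fewer in all SuHx libraries, against 42.6 in control 1 and 0 in controls 2 and 3. Emcn, the sialomucin endomucin, had 478, 438 and 568 normalised counts in SuHx libraries A, B and C, against 570, 571 and 996 in controls 1, 2 and 3. SuHx C was within 3 counts of controls 1 and 2, and the log2 fold change was -0.48 (SE 0.24, limma adjusted p = 0.36), and -0.21 without control 3 (adjusted p = 0.46). Car4, Fabp4 and Emcn were named after their values were seen.

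The water channel gene Aqp1 had 4308, 4724 and 4802 normalised counts in SuHx libraries A, B and C, against 3085, 4636 and 8485 in controls 1, 2 and 3. SuHx libraries lay between the extremes of the controls. Its log2 fold change was -0.10 (SE 0.34, limma adjusted p = 0.90) and turned to 0.28 without control 3. Rgcc, a cell cycle regulator found in capillary endothelium and named after its values were seen, had 279, 333 and 237 normalised counts in SuHx libraries A, B and C, against 122, 273 and 847 in controls 1, 2 and 3. Its log2 fold change likewise turned, with -0.12 for all libraries (limma adjusted p = 0.94) and 0.62 without control 3 (adjusted p = 0.36). Plvap, the protein of fenestral diaphragms, ranged from 12.9 to 30.2 normalised counts in SuHx and from 22.9 to 28.0 in control.

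The pan-endothelial class had 0 of 15 genes past the test. Its median log2 fold change was -0.032 over the 13 genes above 0 in every library, with 6 positive and 7 negative, and 0.084 with Erg and Robo4, which were listed at 0 in 5 libraries each, so the sign of the class turned on these genes. Eng encodes endoglin, a co-receptor for ligands of the transforming growth factor beta family. It had 3496, 3517 and 4689 normalised counts in SuHx libraries A, B and C, against 3001, 2406 and 3178 in controls 1, 2 and 3. All SuHx libraries were above all controls, though the gap between SuHx A and control 3 was small. SuHx averaged 3901 ± 683 and control 2862 ± 405 normalised counts (SD over 3 libraries), which gave a log2 fold change of 0.44 (SE 0.18), which did not pass over all genes (limma adjusted p = 0.27).

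Cdh5 had 388, 664 and 573 normalised counts in SuHx libraries A, B and C, against 591, 776 and 662 in controls 1, 2 and 3. SuHx B lay above controls 1 and 3, and control 3 did not stand out for this gene. This gave a log2 fold change of -0.35 (95% interval -0.87 to 0.18, limma adjusted p = 0.48). Control 3 was the highest library for 10 of the 15 genes of the class. S1pr1, the receptor for sphingosine 1-phosphate, is an example named after its values were seen. It had 1358, 1287 and 1315 normalised counts in SuHx libraries A, B and C, against 925, 1021 and 2044 in controls 1, 2 and 3. SuHx libraries lay close together, above controls 1 and 2 and below control 3, and the log2 fold change was 0.08 (SE 0.29, limma adjusted p = 0.91) with all libraries and 0.44 without control 3 (adjusted p = 0.082).

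Values of 0 limited 2 pan-endothelial transcription and guidance genes. Erg, which encodes an ETS factor of endothelial cells, was listed at 104 normalised counts in SuHx A and at 0 in the other 5 libraries. Robo4, a receptor of the Slit family, was listed at 133 in SuHx C and at 0 in the other 5. Both are genes in use throughout endothelium, so a listed 0 can be a failed estimate, and no fold is given. Without these, the members' median log2 fold change was -0.10 over 40 genes.

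Arterial markers had log2 fold changes from -0.13 to 0.15 with all libraries and from 0.36 to 0.47 without control 3, with 0 of 6 past the test in either case. Notch1, the receptor of the pathway that sets arterial fate, had 1154, 1156 and 1281 normalised counts in SuHx libraries A, B and C, against 882, 966 and 1711 in controls 1, 2 and 3. All SuHx libraries lay above controls 1 and 2 and below control 3. On the log2 scale the difference was 0.08 (95% interval -0.51 to 0.67, limma adjusted p = 0.91), and 0.37 without control 3 (adjusted p = 0.14). The Notch ligand gene Dll4 ranged from 335 to 516 normalised counts in SuHx and from 263 to 754 in control. Sox17, Efnb2, Hey1 and Bmx, which also mark arterial cells, overlapped between the groups.

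Among venous markers, 0 of 4 passed. Vwf, the clotting factor stored in endothelial granules, had 1579, 2273 and 2479 normalised counts in SuHx libraries A, B and C, against 1768, 1234 and 2220 in controls 1, 2 and 3. The groups overlapped through SuHx A and control 3. The difference was 0.29 on the log2 scale (95% interval -0.32 to 0.90, limma adjusted p = 0.61). Nr2f2, named after its values were seen, had 35.7, 21.5 and 28.6 normalised counts in SuHx libraries A, B and C, against 45.9, 35.4 and 52.8 in controls 1, 2 and 3. SuHx A exceeded control 2 by less than 1 count, and the log2 fold change of -0.64 (SE 0.30) did not pass (limma adjusted p = 0.33). Ephb4, the venous receptor for the arterial ligand of Efnb2, ranged from 518 to 637 in SuHx and from 546 to 1002 in control.

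**Figure D3:**
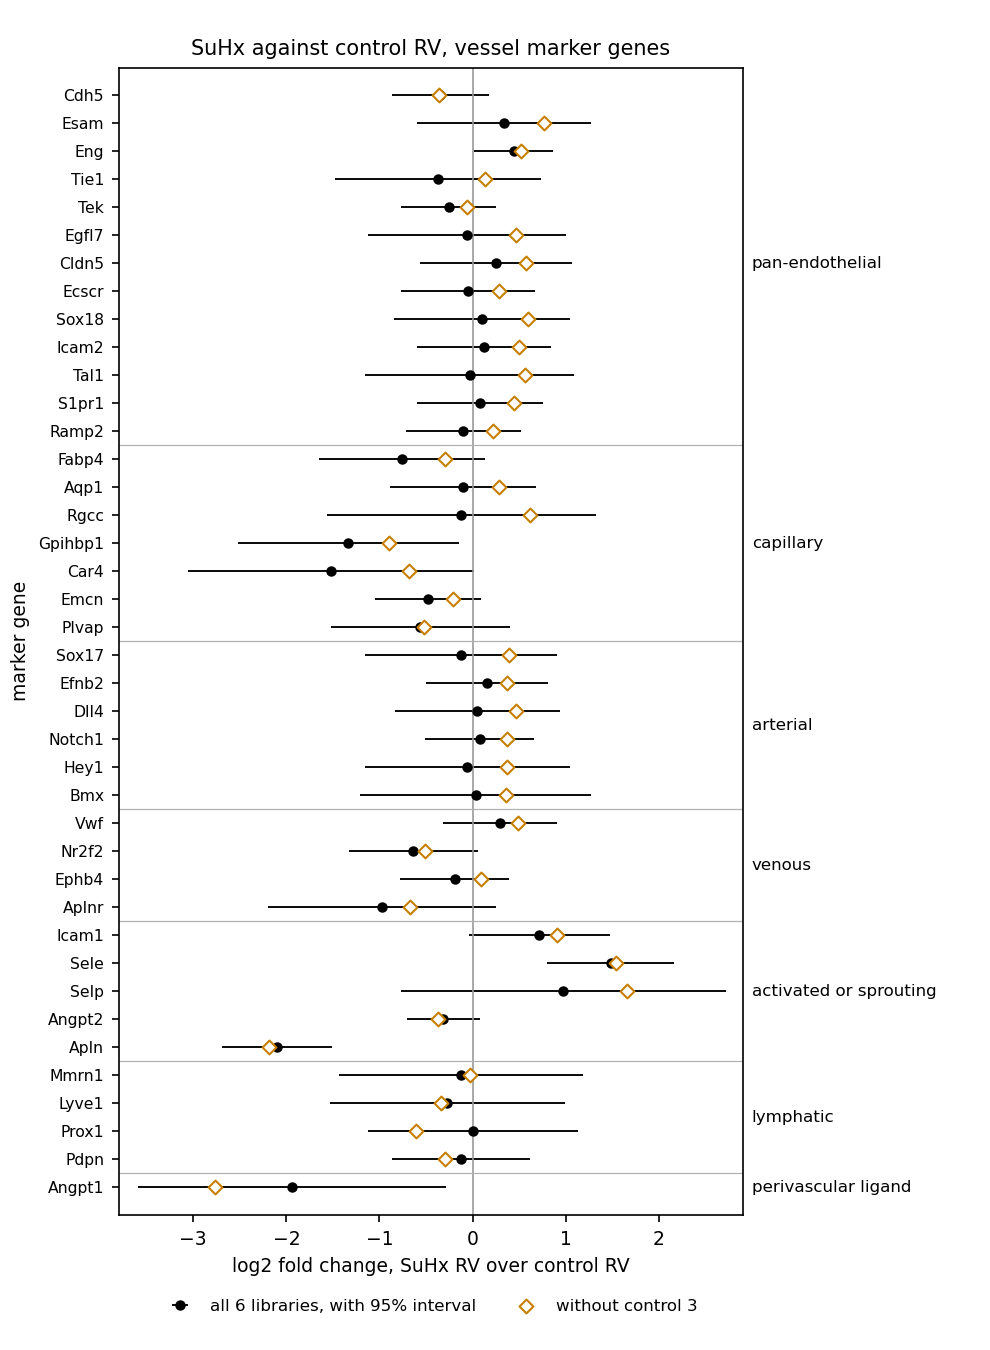
Log2 fold change of SuHx over control RV for 40 vessel marker genes, by class (y axis). Filled circles with lines are all 6 libraries with the 95% interval from limma, and open diamonds are the estimates without control 3. Apln is at -2.10 and -2.19, while Aqp1, Rgcc and several pan-endothelial and arterial genes change side when control 3 is left out.

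Leaving out control 3 moved most of these markers upwards. The members' median log2 fold change became 0.32, beside -0.00095 over all 10722 genes then tested, and 26 of 42 members were positive against 17 of 42 with all libraries. Of all genes tested, 49.9% were positive without control 3 and 50.9% with all libraries. Over the 40 members other than Erg and Robo4 the median was 0.28, with 24 positive. Without control 3, positive values were found in 11 of 13 pan-endothelial genes above 0 in every library, 6 of 6 arterial, 3 of 5 activated or sprouting, 2 of 4 venous, 2 of 7 capillary and 0 of 4 lymphatic genes. Even so, 0 members rose and 2 (Apln and Angpt1) fell at an adjusted p under 0.05 by limma, where 2.49% of all genes were higher and 1.27% lower. With no adjustment, 10 members reached p under 0.05 as higher and 4 as lower, against 10.9% and 8.73% of all genes. The members' share of higher values was thus above the background in a comparison that left out the library in which most of them were highest. Esam, an adhesion molecule of endothelial junctions named after its values were seen, was 1 of the 10. It had 624, 613 and 656 normalised counts in SuHx libraries A, B and C, against 264, 518 and 913 in controls 1, 2 and 3. Its log2 fold change was 0.33 (SE 0.40, limma adjusted p = 0.71) with all libraries and 0.77 (adjusted p = 0.18) without control 3.

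Control 3 was the highest of the 6 libraries for 25 of 42 members, against 27% of all genes tested. Over the 40 members with a value in the controls, control 3 was 1.89 times the mean of controls 1 and 2 in the median, with a range of 0.175 to 5.75. It was over 2-fold higher in 18 members (42.9% of 42), against 5.82% of all genes. The median shift was 1.296 log2 units for capillary, 1.11 for arterial, 1.00 for pan-endothelial, 0.72 for venous and 0.17 for activated or sprouting markers, against -0.36 for the 4 lymphatic markers. The other lymphatic genes, of which 8 were tested, lay at 0.54, so the lower values of the 4 markers did not extend to that list. Mural cell markers (-0.23) and fibroblast markers (-0.45) were also below controls 1 and 2, cardiomyocyte markers lay at 0.26, and ribosomal protein genes at 0.50. Hba1, the haemoglobin gene of erythrocytes, had 17108, 9210 and 8387 normalised counts in SuHx libraries A, B and C, against 4477, 6320 and 14619 in controls 1, 2 and 3. The part of the immediate early response, of blood or of tissue makeup in the vessel marker values of control 3 was not tested.

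**Figure D4:**
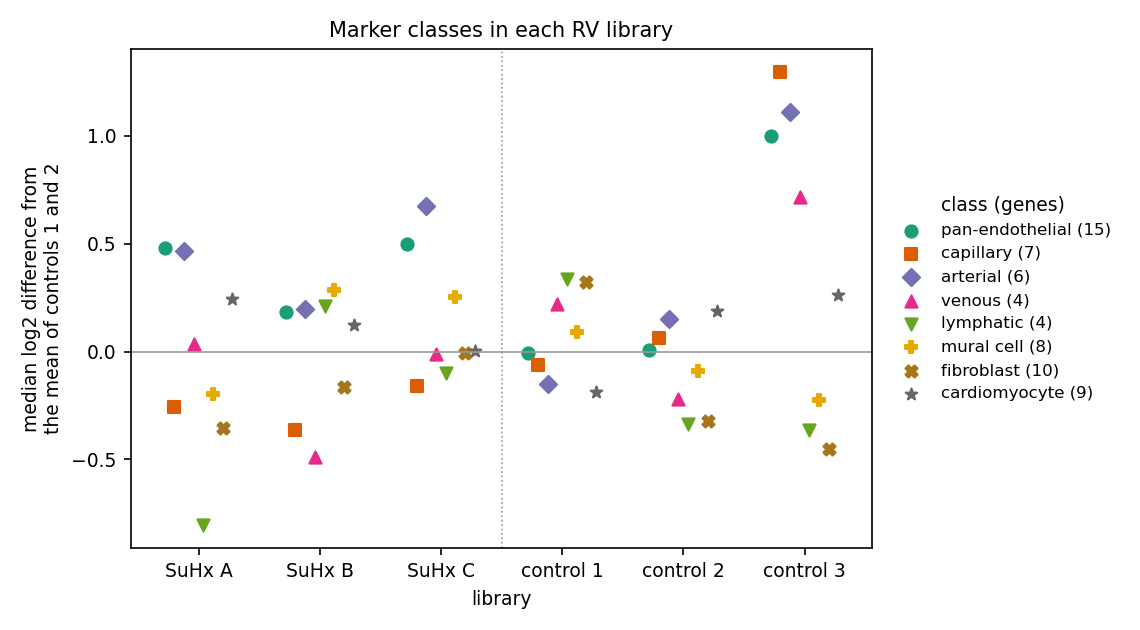
Median log2 difference of each marker class from the mean of controls 1 and 2 (y axis), by library (x axis, SuHx left and control right), with the number of genes per class in the legend. In control 3, capillary markers lie at 1.296, arterial at 1.11 and pan-endothelial at 1.00, whereas the 4 lymphatic markers (-0.36) and the mural cell markers (-0.23) lie below 0.

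Lymphatic markers had 0 of 4 past the test, with a median log2 fold change of -0.12. Prox1, which cardiomyocytes also express, had 531, 357 and 435 normalised counts in SuHx libraries A, B and C, against 695, 630 and 186 in controls 1, 2 and 3. Controls 1 and 2 lay above all SuHx libraries and control 3 below them. The estimate was 0.01 on the log2 scale (95% interval -1.12 to 1.13, limma adjusted p = 0.997) with all libraries, and -0.60 (SE 0.18, adjusted p = 0.13) without control 3.

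Lyve1, a hyaluronan receptor also found on resident macrophages, had 70.3, 342 and 223 normalised counts in SuHx libraries A, B and C, against 283, 174 and 193 in controls 1, 2 and 3. SuHx A was the lowest and SuHx B the highest library, so that the spread within SuHx exceeded any difference between the groups. The estimate was -0.27 on the log2 scale (95% interval -1.53 to 0.99, limma adjusted p = 0.83). SuHx A also had the lowest sum of leukocyte markers, 612, and that relation was not tested. Mmrn1, a multimerin of lymphatic endothelium named after its values were seen, showed the same order within SuHx, with 47.1, 169 and 73.4 normalised counts in A, B and C, against 154, 46.9 and 105 in controls 1, 2 and 3. Pdpn, the podoplanin gene, ranged from 41.0 to 74.4 in SuHx and from 48.8 to 88.5 in control.

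A wider list of 50 endothelial genes, chosen with earlier results of these data known, had 41 genes tested, of which 2 rose and 0 fell (limma, adjusted p under 0.05), beside the 1.55% and 0.671% of all genes. The median over the list was -0.033 on the log2 scale. Bmpr2, a receptor for bone morphogenetic proteins, had 843, 1107 and 1047 normalised counts in SuHx libraries A, B and C, against 288, 489 and 347 in controls 1, 2 and 3. The groups were well apart, with a log2 fold change of 1.44 (SE 0.22, limma adjusted p = 0.026). Ednrb, an endothelin receptor, had 157, 192 and 269 normalised counts in SuHx libraries A, B and C, against 69.5, 46.9 and 78.6 in controls 1, 2 and 3. It was likewise higher in every SuHx library, with a log2 fold change of 1.65 (SE 0.28, limma adjusted p = 0.033). Both genes are also expressed outside endothelium. Without control 1 or any 1 of the SuHx libraries the adjusted p of Bmpr2 lay at 0.054 to 0.14, and that of Ednrb at 0.067 to 0.14, also where control 2 was left out. Both also missed the threshold without the mean-variance trend (0.062 for Bmpr2 and 0.065 for Ednrb) and without controls 1 and 3 together (0.093 for Bmpr2 and 0.061 for Ednrb), and Ednrb did so after rescaling to equal totals (0.070, or 0.059 without mitochondrially encoded genes). Without control 3, 5 genes of the list rose (Bmpr2, Ednrb, Mcam, Flt4 and Cxcr4) and 1 fell (Tspan18). Of all genes tested without control 3, 2.49% were higher and 1.27% lower by the same rule. Mcam, Flt4, Cxcr4 and Tspan18 are named after their values were seen.

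A list of other lymphatic genes had 8 tested, with 1 higher and a median log2 fold change of 0.71. Over all genes tested, 1.55% were higher and the median was 0.0095. Flt4 and Nrp2 are on both this list and the wider endothelial list, so the lists are not separate. Itga9, the integrin chain needed for lymphatic valves and also present in muscle, had 777, 918 and 870 normalised counts in SuHx libraries A, B and C, against 273, 354 and 138 in controls 1, 2 and 3. All SuHx libraries were above all controls, with a log2 fold change of 1.84 (SE 0.33, limma adjusted p = 0.038), which lay at an adjusted p of 0.073 to 0.16 without control 1 or any 1 of the SuHx libraries. Npr3, an endocardial marker that clears natriuretic peptides, had 313, 238 and 320 normalised counts in SuHx libraries A, B and C, against 95.3, 59.4 and 29.8 in controls 1, 2 and 3. It was the 1 of 4 tested endocardial markers that passed, with a log2 fold change of 2.36 (SE 0.39, limma adjusted p = 0.033), and its adjusted p was 0.083 to 0.16 without control 2 or any 1 of the SuHx libraries. Without the mean-variance trend the adjusted p was 0.078 for Itga9 and 0.068 for Npr3.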

How the data were processed

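RV tissue was sequenced in 3 SuHx and 3 control libraries, and the deposited values are normalised counts per gene and library, used as a signal and not as counts. Per the labels, the authors quantified reads with Salmon 0.14.1 and normalised with DESeq2 1.24.0, and name the mouse build GRCm38.p6, although the samples are rat. Whole reads could not be recovered, since the worth of 1 read differed between genes, so no count model was run and the depth in reads is unknown. Library totals were 12754296 to 18249330 normalised counts in SuHx and 11607609 to 12393415 in control, of which 47.8% to 62.2% came from 11 mitochondrially encoded genes. An entry without a gene name (0.00143% to 0.00514%) was left out.

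Values were tested as log2(normalised count + 1) with limma 3.58.1 (mean-variance trend, R 4.3.3) over 10725 genes with a mean of at least 10, two-sided, with Benjamini-Hochberg adjustment over all of them and calls at an adjusted p under 0.05. Fold changes on this scale understate those of low genes. The procedure was tested on simulated data, but the outcome is not given here and lends no weight to the calls. Members and lists were chosen with earlier results of these data known. Library values are given for each member with an unadjusted p under 0.05, for the member of highest mean in each class and for Cdh5, Vwf, Lyve1 and Prox1. A planned likeness to Pecam1 was not run, as that gene is not analysed here. Alternatives changed the pseudocount (0.5 and 5), the filter (none or a mean of 50), the scaling (TMM, median of ratios, equal totals with and without mitochondrially encoded genes), the trend, robust moderation and library weights, and left out each library in turn and controls 1 and 3 together.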

Additional observations from a re-analysis of the deposited data

How the results depend on the processing

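The number of members called lower was 1 with all libraries and 0 to 2 when each library was left out in turn, with 2 without control 3 and 0 without SuHx A. It was 0 without controls 1 and 3 together and 2 with library weights, which also gave 1 higher. The other alternatives kept 1 lower and 0 higher. The members' median log2 fold change ranged from -0.23 to 0.32 when each library was left out, with 0.32 without control 3. Rescaling to equal totals moved the median of all genes to -0.31 and that of the members to -0.40, and without mitochondrially encoded genes to -0.12 and -0.21, so members lay about as far below all genes as before.

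Signs turned for 8 of 26 genes whose fold change is given, 0 of them called. Without control 3 the log2 fold change was 0.28 for Aqp1, 0.62 for Rgcc and -0.60 for Prox1, and library weights gave 0.18 for Aqp1, 0.38 for Rgcc and -0.45 for Prox1. Equal totals gave -0.24 for Notch1, -0.24 for S1pr1, -0.028 for Vwf and -0.31 for Prox1, and equal totals without mitochondrially encoded genes -0.052 for Notch1, -0.045 for S1pr1 and -0.12 for Prox1. Without controls 1 and 3 together Rgcc lay at 0.040, Prox1 at -0.53 and Lyve1 at 0.011. Across single libraries left out, Notch1 ranged from -0.10 to 0.37, S1pr1 from -0.13 to 0.44, Esam from -0.12 to 0.77, Rgcc from -0.78 to 0.62 (1.7e-05 without SuHx C), Prox1 from -0.60 to 0.34 (-0.14 without SuHx A) and Lyve1 from -0.75 to 0.38 (0.38 without SuHx A). Of 465 values of genes over 18 alternatives, 411 kept their sign and their side of the threshold. The causes were not tested. No paired analysis was possible because the columns of the SuHx libraries cannot be tied to the numbers in the sample labels. Limits lie in 3 libraries a group, in control 3, and in values of 0 that can be failed estimates.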
